A study of Mus musculus with 5 samples.

Results

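The spots described here are the 170 spots with the highest CM5 score among 3342 spots kept on 5 sections of the neonatal mouse heart. The CM5 score is the authors' estimate, made by label transfer from a single-nucleus reference, of the share of a spot that resembles cardiomyocyte state CM5. In each section the 5% of spots with the highest score were taken, rounded up, after 22 of 3364 deposited spots with fewer than 1000 UMIs (unique molecular identifiers, each counting 1 captured molecule) had been dropped. This gave 28 of 543 spots in the sham day 3 section, 48 of 960 in sham day 7, 19 of 365 in MI day 3, 35 of 688 in MI day 7 replicate 1 and 40 of 786 in replicate 2. They are compared with the spots of the same section in which the CM1 score was the highest of the 11 scores and which were not among the highest CM5-score spots (CM1-dominant spots).

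The sections were transverse heart sections from wildtype C57BL/6 mice, measured with 10x Visium, a slide whose barcoded spots each capture the mRNA of the tissue above them. The mice had permanent ligation of the left anterior descending artery (myocardial infarction, MI) or a sham operation on postnatal day 1. Hearts were taken 3 or 7 days later, and sections lay 200 µm below the suture. Sham day 3, sham day 7 and MI day 3 had 1 section each and MI day 7 had 2, so the section is the replicate and only MI day 7 has a spread within its group. Sections held 11396022 to 37492530 raw UMIs, and the median spot held 20842.5 to 53940. Between 3 and 449 barcodes were shared by a pair of sections, because Visium barcodes mark positions on a slide and recur between slides. The sham day 3 table held raw counts and the other 4 held counts corrected by sctransform, so all levels are given as mean CPM over the spots of a kind, that is, as counts scaled to the same total in every spot. A spot holds several cells, so fewer cells of a type and less RNA per cell cannot be told apart.

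The neonatal mouse ventricle contains cardiomyocytes that still pass through the cell cycle, next to fibroblasts, endothelial and endocardial cells, mural cells and macrophages. Division of a cardiomyocyte requires DNA replication, assembly of a mitotic spindle and, for complete division, cytokinesis, and these steps decline in the first days after birth. The study's reference named CM1 to CM5 as cardiomyocyte states, with CM1 the most common state, CM4 the state described as regenerative and CM5 a state that responds to injury.

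The score that chose the spots was graded, with no gap at the limit. The last spot inside and the first outside the limit had CM5 scores of 9.34% and 9.33% in sham day 3 and 17.1% and 17.0% in sham day 7. In MI day 3 they had 36.5% and 35.8%, in MI day 7 replicate 1 23.2% and 22.8%, and in replicate 2 23.8% and 23.7%. The median score of the chosen spots was 14.7% in sham day 3, 27.99% in sham day 7, 43.0% in MI day 3, 39.0% in MI day 7 replicate 1 and 30.7% in replicate 2. The sham day 3 spots therefore carried the lowest scores, while the highest single score of each section lay between 64.2% and 68.9%. CM5 was the highest score in 67 of the 170 spots, CM1 in 79, CM4 in 8, CM3 in 6, fibroblast in 4, endothelial in 3, macrophage in 2 and pericyte or smooth muscle in 1. CM5 and CM1 were the highest score in 4 and 20 of the chosen spots of sham day 3, 19 and 14 of sham day 7, 13 and 5 of MI day 3, 18 and 15 of MI day 7 replicate 1 and 13 and 25 of replicate 2. Of all 69 spots on the sections with CM5 as the highest score, 67 were among the chosen ones.

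The highest CM5-score spots lay inside the section rather than at its rim and touched each other more often than CM1-dominant spots touched them. Edge spots, those with fewer than 6 neighbours, made up 0%, 10.4%, 0%, 8.57% and 5.0% of them in sham day 3, sham day 7, MI day 3 and MI day 7 replicates 1 and 2. In the same order edge spots made up 17.9%, 13.01%, 27.2%, 24.2% and 20.4% of CM1-dominant spots, a mean difference of -15.7 percentage points, lower in 5 of 5 sections. The share of neighbours that were themselves highest CM5-score spots was 23.8%, 17.1%, 35.1%, 19.5% and 10.1%, against 6.12%, 5.43%, 3.31%, 4.82% and 5.92% for CM1-dominant spots. That difference was 16.0 ± 10.1 percentage points (SD, n = 5), higher in 5 of 5 sections. In MI day 3 all 19 spots touched another one and formed 4 patches, the largest of 9 spots. In the other sections between 10 and 22 spots stood alone, and the largest patches held 15 spots in sham day 3, 12 in sham day 7, 8 in MI day 7 replicate 1 and 5 in replicate 2.

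**Figure D1:**
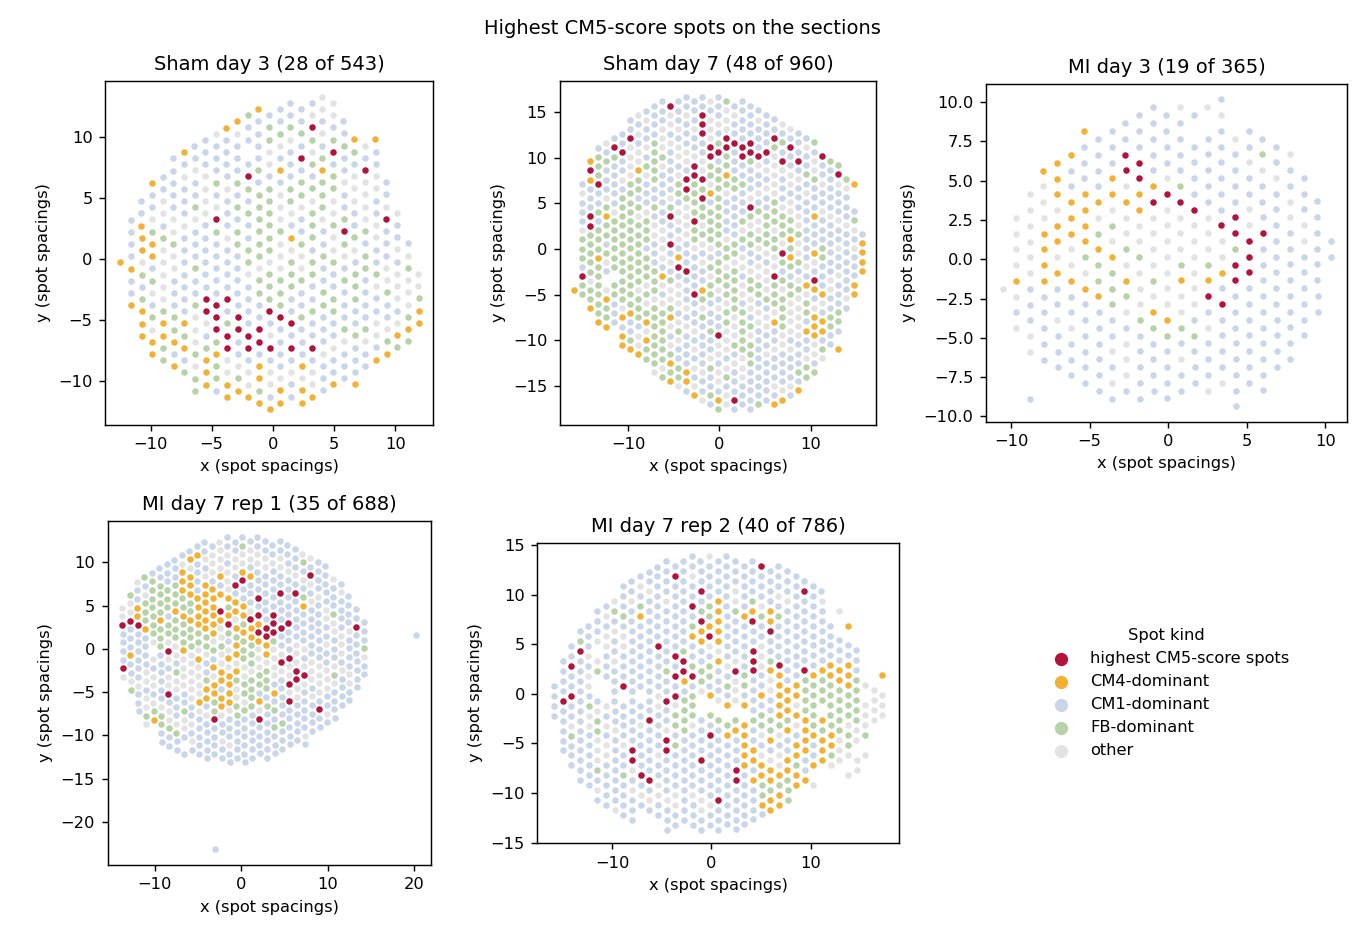
Positions of all kept spots on the 5 sections, with x and y in units of the spacing between neighbouring spots and the section's centre at 0; red marks the highest CM5-score spots, and the other colours mark spots by their highest score. The red spots form 1 patch of 15 and scattered spots in sham day 3 and an arc in MI day 3, and they are more scattered in MI day 7 replicate 2, where the largest patch holds 5.

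Fibroblast-dominant spots were nearer to the highest CM5-score spots than to CM1-dominant spots in 4 of 5 sections. The median distance was 1.00, 1.01, 2, 2.01 and 1.74 spot spacings for the former and 1.01, 1.74, 3.47, 2.64 and 2.65 for the latter, and in sham day 3 the values differed by no more than the rounding of pixel positions. The mean distance of the highest CM5-score spots from the section's centre, divided by the mean of all spots, was 0.86, 1.01, 0.72, 0.81 and 0.82. For CM1-dominant spots it was 1.00, 1.08, 1.16, 1.15 and 1.02. For the share of edge spots and these 2 distances the exact sign-flip test over sections gave a p of 0.0625 (two-sided), the smallest that 5 sections allow. After Benjamini-Hochberg adjustment over 8 measures it was 0.1, so none could pass 0.05. The share of neighbours that were themselves chosen was among the 8 measures. The score that chose the spots also sets this share, so it is given as a description without a test. With distances that differ by less than 0.05 spacings set equal, an alternative added after the data were seen, the distance to fibroblast-dominant spots gave an exact sign-flip p of 0.125, and the smallest adjusted p over the 8 measures was 0.125. The same test gave 0.0625 for the number of detected genes, whose median was 4877.5, 4802, 6254, 7166 and 4683 per spot, higher than the 4846, 4797, 6057, 6782.5 and 4581 of CM1-dominant spots in 5 of 5 sections. Raw UMIs per spot differed by -0.066 on the log2 scale (exact sign-flip p = 0.312).

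The distance to the nearest CM4-dominant spot split by operation in these 5 sections. At day 3 and day 7 in sham hearts it was 2.65 and 3.03 spacings for the highest CM5-score spots and 2.65 and 2.67 for CM1-dominant spots. In the MI sections it was 1.74, 2 and 2.65 against 4.02, 3.47 and 3.61, so the highest CM5-score spots were nearer in 3 of 3 MI sections. The difference between operations was -1.75 spacings, and the values of the operations did not overlap, but 3 sections against 2 cannot give an exact permutation p under 0.2, the value obtained (adjusted p = 0.4). The operations also did not overlap in the same contrast for distance to macrophage-dominant spots, distance from the centre and number of detected genes. Each of these gave the same exact permutation p. The mean CM4 score of neighbours that were not themselves chosen showed the same split, with 4.68% and 5.63% in the sham sections against 8.56% and 7.02% beside CM1-dominant spots. In the MI sections it was 13.02%, 13.4% and 6.85% against 4.50%, 5.34% and 6.68%. The mean fibroblast score of such neighbours was 15.8%, 19.5%, 7.85%, 6.17% and 7.34%, against 14.7%, 12.8%, 2.25%, 5.49% and 5.81%, higher in 5 of 5 sections (exact sign-flip p = 0.0625, adjusted p = 0.625 over 10 scores).

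The genes that stood highest in these spots relative to CM1-dominant spots were genes of mitosis and DNA replication. Because the score is made from the same expression values, this comparison is a description without a test. Of 13303 genes above the filter on low values, 972 (7.31%) were higher and 321 (2.41%) lower in all 5 sections, and with median-of-ratios scaling the split was 535 higher and 597 lower. The median of all genes was 0.03 on the log2 scale. By the naming rule (at least 20 CPM, the same direction in every section, met by 11.6% of 5904 such genes upward and 1.69% downward), the 10 largest differences were in Prc1, Bub1b, Hmmr, Top2a, Neurl1b, Ccnb2, Ube2c, Cdc20, Cenpm and Rrm2. All but Neurl1b, a ubiquitin ligase acting on Notch ligands, have roles in cell division.

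Prc1, which bundles the microtubules of the central spindle for cytokinesis (chromosome 7, 80294450 to 80316259, GRCm38), was at 71.7, 55.4, 82.2, 38.7 and 46.3 CPM in sham day 3, sham day 7, MI day 3 and MI day 7 replicates 1 and 2. In CM1-dominant spots it was at 41.2, 30.7, 39.7, 14.5 and 28.8 CPM. Its mean log2 difference was 0.94 ± 0.27 (SD, n = 5). Top2a, the topoisomerase that untangles sister chromatids (chromosome 11, 98992943 to 99024189), was at 96.5, 54.4, 123, 49.0 and 64.1 CPM against 53.9, 38, 51.8, 20.2 and 36.9, a difference of 0.92 ± 0.32. For both genes the day 3 sections were the highest in the chosen spots, and the chosen spots exceeded the CM1-dominant spots of their own section in each of the 5. Bub1b, a kinase of the spindle checkpoint (chromosome 2, 118598211 to 118641591), and Hmmr, a spindle protein (chromosome 11, 40701395 to 40733422), each differed by 0.93, with SDs of 0.46 and 0.66. Hmmr in sham day 3 differed least, at 26.5 against 23.8 CPM.

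Ccnb2, a mitotic cyclin (chromosome 9, 70407692 to 70421547), was at 65.3, 49.5, 62.4, 24.3 and 36.6 CPM against 32.2, 24.5, 36.5, 14.1 and 22.9, and with 0.83 ± 0.15 it had the smallest spread of the 10. Ube2c and Cdc20 act with the anaphase-promoting complex (chromosome 2, 164769898 to 164778822, and chromosome 4, 118432901 to 118437352), and both differed by 0.82. Ube2c was at 179, 108, 204, 75.0 and 103 CPM against 111, 77.4, 93.9, 32.9 and 64.9. The centromere protein gene Cenpm (chromosome 15, 82233779 to 82244748) differed by 0.82 ± 0.30. Rrm2, a subunit of the enzyme that makes deoxynucleotides for DNA synthesis (chromosome 12, 24708241 to 24714146), differed by 0.80 ± 0.17. In the 1 table of raw counts, sham day 3, Top2a had 59 UMIs among 609970 in the chosen spots (96.7 CPM, exact Poisson 95% interval 73.6 to 125) and 268 among 4971188 in CM1-dominant spots (53.9, interval 47.6 to 60.8). These intervals cover counting error only, and since the score uses the same values they are no test.

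**Figure D2:**
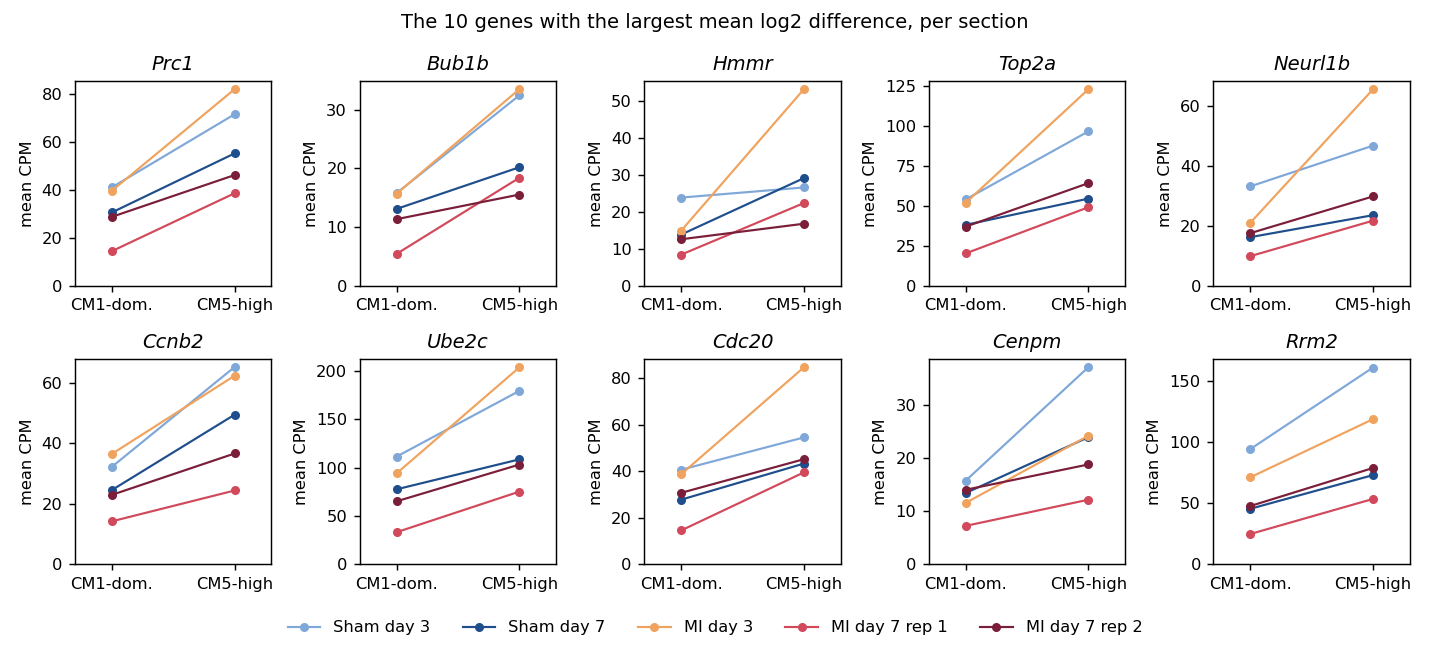
Mean CPM of the 10 leading genes in CM1-dominant spots (left) and the highest CM5-score spots (right), 1 panel per gene and 1 line per section, with linear axes from 0. Every line rises, and Prc1 goes from 14.5 to 38.7 CPM in MI day 7 replicate 1 and from 41.2 to 71.7 in sham day 3.

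Because these genes stood high together, the promoter stretches of 3 of them with different mitotic roles are shown. They are the 100 bases before the RefSeq start, in gene direction, with TTTGAA or its reverse complement TTCAAA (the core of the cell cycle genes homology region, CHR, which the DREAM repressor complex binds) and CCAAT or its reverse complement ATTGG (bound by NF-Y) in capitals. The RefSeq and GENCODE starts of Prc1 and Cdc20 differ by fewer than 30 bases, so the last bases of those stretches lie in the first exon of the GENCODE gene.
Prc1 (GRCm38.p6, chr7:80294376-80294475, plus strand): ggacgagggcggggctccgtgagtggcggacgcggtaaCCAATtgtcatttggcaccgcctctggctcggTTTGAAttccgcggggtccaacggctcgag
Top2a (GRCm38.p6, chr11:99024190-99024289, minus strand): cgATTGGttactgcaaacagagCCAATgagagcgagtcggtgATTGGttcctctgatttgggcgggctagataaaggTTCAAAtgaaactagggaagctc
Cdc20 (GRCm38.p6, chr4:118437344-118437443, minus strand): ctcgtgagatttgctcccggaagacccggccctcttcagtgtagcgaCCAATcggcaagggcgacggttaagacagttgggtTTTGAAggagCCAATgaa
The CHR letters began 30, 23 and 18 bases before the start of Prc1, Top2a and Cdc20. In the full RefSeq window, 250 bases before to 50 after the start, the CHR letters were found in 8 of the 10 leading genes, all but Cenpm and Rrm2, against 20.2% of 27025 genes. CCAAT was found in 10 of 10, against 41.1%, and both in 8 of 10, against 7.97%. Of 13 genes of the cell cycle list with a window, 6 held the CHR letters, 12 held CCAAT and 6 held both. A match is a string of letters and not a measured binding site.

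The cell cycle list (15 genes, all above the filter) had 12 genes higher and 0 lower in all 5 sections, with a median difference of 0.71. The section medians were 0.51 in sham day 3, 0.53 in sham day 7, 0.99 in MI day 3, 0.84 in MI day 7 replicate 1 and 0.65 in replicate 2. Mki67, the antigen of cycling cells, differed by 0.80 ± 0.33, and Cdk1, the mitotic kinase, by 0.79 ± 0.19. The replication genes Pcna and Mcm6 differed by 0.34 ± 0.18 and 0.47 ± 0.13, less than the mitotic genes above. Aurkb, Mcm3 and Mcm5 were higher in 4 of 5 sections. Summed over the list, the chosen spots held 1406, 951, 1525, 634 and 827 CPM, which is 1.41 to 1.83 times the sum in CM1-dominant spots.

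This sum was higher in the chosen spots than in spots dominated by any other score with at least 10 spots, in 4 of 5 sections: above 6 of 6 kinds in sham day 3, 8 of 8 in sham day 7 and 6 of 6 in MI day 3 and in MI day 7 replicate 1. In MI day 7 replicate 2 it was above 5 of 7 kinds, with CM4-dominant spots at 842 and epicardial-dominant spots at 849 CPM. The chosen spots with CM5 as the highest score held 1734, 1025, 1610, 699.96 and 858 CPM, and those with CM1 as the highest score held 1296, 925, 1102, 568 and 783. Both kinds exceeded the CM1-dominant spots, at 1000, 647, 844, 347 and 554 CPM. The median difference of the list was 0.44 when only the chosen spots with CM1 as the highest score were used, and 0.50 when both kinds of spot were limited to those nearer to the centre than the median spot of the section. CM2, another cardiomyocyte state of the reference, known for high expression of cell cycle genes, was not among the kinds compared, because its score was the highest in only 3, 9, 1, 2 and 0 spots that were not chosen. Those spots held 1160, 608, 714 and 383 CPM in the first 4 sections. The mean CM2 score of the chosen spots was 10.9%, 5.17%, 0.43%, 0.15% and 0.065%, against 7.46%, 6.37%, 0.69%, 1.25% and 0.12% in CM1-dominant spots, higher only in sham day 3, where 13 of the 28 chosen spots were above 10%. When both kinds of spot were limited to those with a CM2 score under 10%, the sums were 1427, 980, 1525, 634 and 827 CPM against 954, 638, 845, 346 and 554, a ratio of 1.49 to 1.83. These restrictions were added after the data were seen.

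The label of the score was checked against markers of cardiomyocyte stress and hypoxia, which differed far less from CM1-dominant spots than the cell cycle genes did. Of 28 stress genes above the filter, 3 were higher and 0 lower in all 5 sections, and the median difference was 0.07. Against all other spots that median was -0.0082. Of 14 hypoxia genes, 1 was higher and 0 lower, with a median of 0.05 that turned below 0 with the top 2.5% of spots (-0.10), median-of-ratios scaling (-0.0090), mitochondrial and haemoglobin genes left out (-0.0050) and all other spots as the comparison (-0.074). The 3 stress genes were Ankrd1, a titin-associated repeat protein (0.25 ± 0.21), Xirp1, an actin-binding protein of the intercalated disc (0.09 ± 0.05), and Lmcd1, a LIM domain protein (0.27 ± 0.12). Nppa, the atrial natriuretic peptide gene, was at 990, 216, 4981, 91.5 and 569 CPM against 549, 251, 3338, 54.3 and 418, higher in 4 of 5 sections, lower in sham day 7. Xirp2, a paralog of Xirp1, was at 18.4, 38.7, 12.2, 29.0 and 34.3 CPM against 10.7, 36.8, 21.7, 28.1 and 40.8 (-0.04 ± 0.55). Summed over the stress list, the chosen spots held 10088, 8359, 13966, 6642 and 9841 CPM, 1.03 to 1.11 times the sum in CM1-dominant spots. This was above every other kind with at least 10 spots in the sham sections, 6 of 6 at day 3 and 8 of 8 at day 7, where CM4-dominant spots held 7811 and 8075 CPM. In the MI sections it was above 1 of 6 kinds at day 3, 2 of 6 in day 7 replicate 1 and 4 of 7 in replicate 2, and CM4-dominant spots held 40926, 7828 and 16172 CPM. The spots are named here by their score alone. The paper places CM5 cells in the border zone beside the injured tissue of an MI day 7 section and refers to earlier immunohistochemistry. That placement was not tested here, and the paper's own CM5 markers were not examined as a set.

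**Figure D3:**
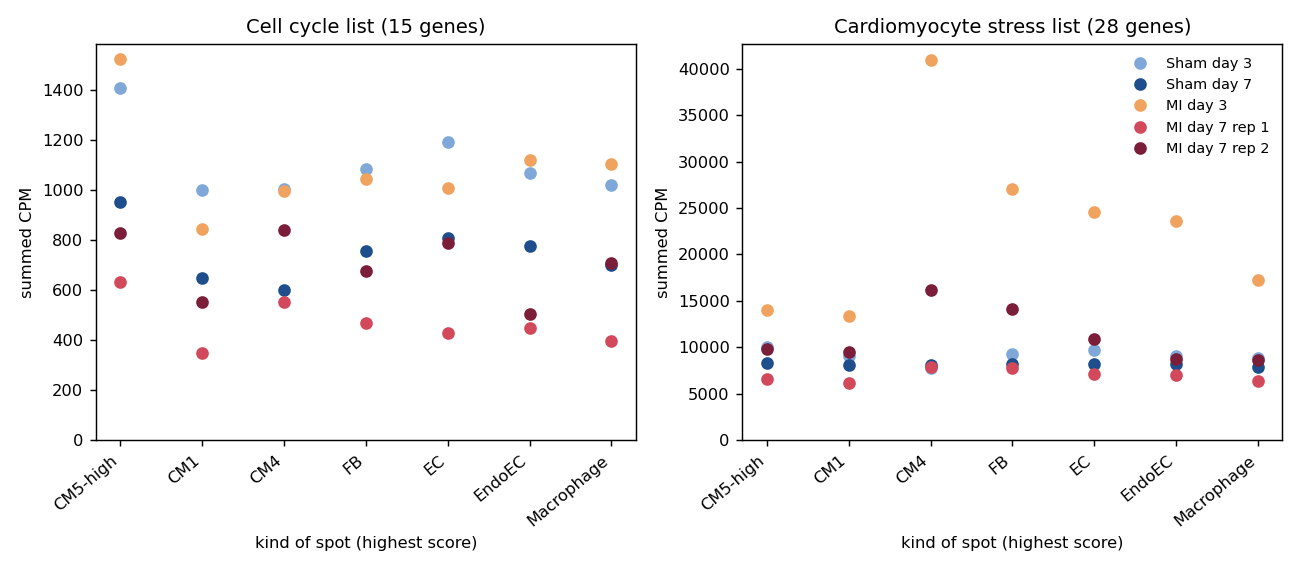
Summed CPM of the cell cycle list (15 genes, left) and the cardiomyocyte stress list (28 genes, right) in the highest CM5-score spots and in other spots grouped by their highest score, 1 point per section, linear axes from 0. The chosen spots are highest on the left in 4 sections, while on the right CM4-dominant spots of MI day 3 are highest at 40926 CPM.

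Cardiomyocyte genes differed little. Of 20 genes of the working myocardium, 3 were higher (Actc1, Tpm1 and Casq2, the cardiac actin, a tropomyosin and the calcium store protein) and 2 lower (the calcium channels Ryr2 and Cacna1c) in all 5 sections, with a median of -0.01. Cacna1c, at 131, 101, 106, 84.0 and 73.6 CPM against 142, 103, 166, 110 and 96.5, differed most of these, by -0.32 ± 0.24. Among 10 genes of the immature sarcomere, Acta2, the smooth muscle actin of the fetal heart, and Myl4, the atrial light chain, were higher in all 5 sections, by 0.33 ± 0.27 and 0.36 ± 0.22. Acta2 was at 406, 264, 645, 255 and 545 CPM against 312, 252, 389, 199.9 and 508. Of the NFE2 family of stress transcription factors, Nfe2l2 was higher in all 5 sections (0.31 ± 0.22) and Nfe2l1 in 4 (0.11 ± 0.15).

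Of 8 atrial and conduction genes, only Myl4 was higher in all 5 sections (list median 0.21, and -0.48 against all other spots), and of 13 intercalated disc genes 1 was higher (median -0.01).

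Among metabolic lists, 7 of 20 glycolysis genes were higher in all 5 sections and 0 lower (median 0.10), with Pgk1, phosphoglycerate kinase, at 0.21 ± 0.07. Of 31 proteasome genes 7 were higher and 1, Psmd7, lower (median 0.11). Of all genes, 7.31% were higher and 2.41% lower in all 5 sections. With median-of-ratios scaling the median was 0.041 for glycolysis, 0.052 for proteasome and 0.0041 for antioxidant genes. Antioxidant genes (21 genes, 2 higher, median 0.06) and genes of the unfolded protein and integrated stress response (17 genes, 4 higher and 1 lower, median 0.03) had medians closer to 0, and the latter turned to -0.0061 with median-of-ratios scaling. Fatty acid oxidation (22 genes, 2 higher, median -0.02) and the nuclear-encoded respiratory chain (25 genes, 3 higher, median 0.04) lay near the median of all genes, and the respiratory chain turned to -0.023 with that scaling. The mitochondrially encoded genes went the other way, with 11 of 13 lower in all 5 sections and a median of -0.23. The cytochrome oxidase subunit mt-Co2 differed by -0.30 ± 0.11. Among spots nearer to the centre than the median spot the median of this list was -0.08, and against all other spots it was -0.07.

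Markers of other cell types moved in both directions. Of 14 fibroblast markers, 5 were higher in all 5 sections, against 7.31% of all genes, and 0 lower. Their median was 0.17, and -0.36 against all other spots. Fn1, fibronectin, was at 333, 380, 681, 367 and 461 CPM against 296, 327, 418, 292 and 379, and Postn, periostin, differed by 0.24 ± 0.22, while the summed list was 0.98 to 1.16 times that of CM1-dominant spots. No macrophage marker of 14 had 1 direction in all 5 sections, and the list was at 109, 121, 404, 227 and 204 CPM against 121, 129, 527, 216 and 169. Endothelial (12 genes, median 0.00), endocardial (6, -0.04), mural (10, 0.04) and epicardial markers (5, -0.15) had at most 1 gene in a direction in all sections, and the endothelial and mural medians were -0.059 and -0.017 with median-of-ratios scaling. Against all other spots the medians of these lists were -0.061, -1.08, -0.082 and -0.81 in that order, and that of the macrophage list was -0.99. The part of these cell types in the cell cycle difference was not tested.

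Blood genes were lower, with 5 of 6 lower in all 5 sections and a median of -0.70. The list was at 2615, 4686, 5588, 7005 and 5721 CPM against 3947, 6456, 11234, 8786 and 10252. The near-identical globin copies Hba-a1, Hba-a2, Hbb-bs and Hbb-bt share reads, so their separate values, between -0.75 and -0.59, are uncertain. The largest difference downward was in Lrtm1, a leucine-rich repeat membrane protein (chromosome 14, 29018208 to 29033645), at 3.50, 43.0, 3.04, 39.8 and 24.0 CPM against 8.09, 57.6, 19.3, 79.6 and 47.2 (-1.14 ± 0.71). Its level was lower in both day 3 sections than in the 3 day 7 sections in either kind of spot. Efnb3, an ephrin ligand (-0.57), Aplnr, the apelin receptor of endothelial cells (-0.46), Plcd3, Bloc1s2 and Nr2c2ap (-0.47 to -0.45) completed the 10.

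**Figure D4:**
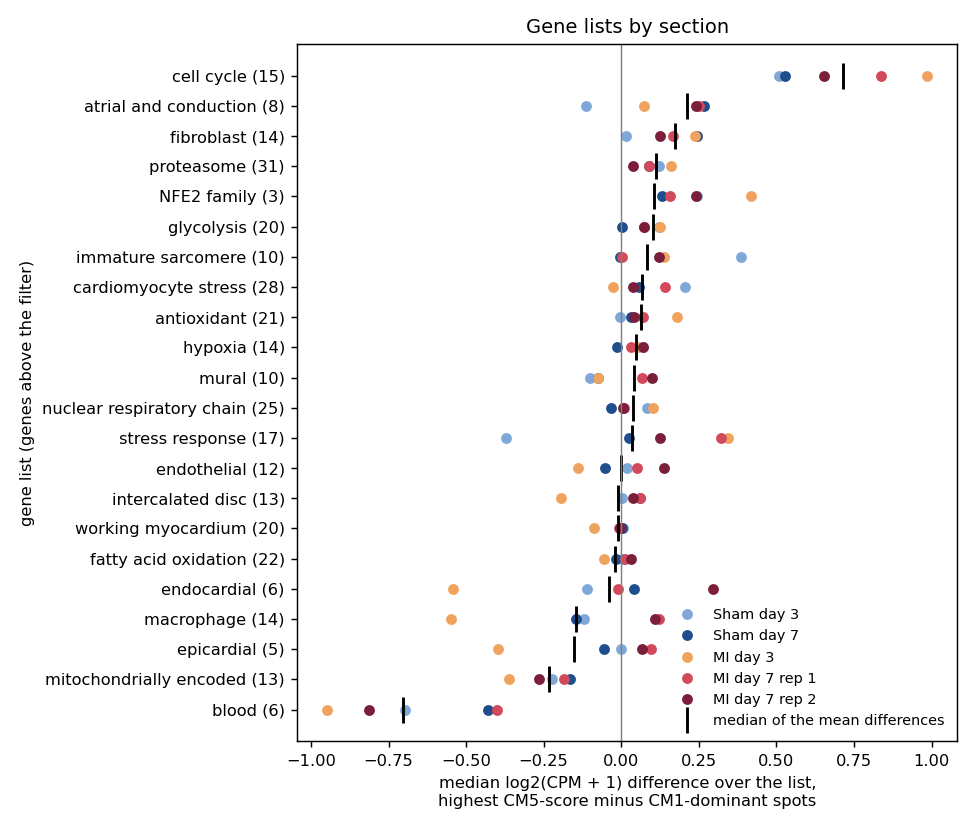
Median log2(CPM + 1) difference between the highest CM5-score spots and CM1-dominant spots over each gene list, 1 point per section; the black bar is the median over the list of the mean differences and the number in brackets counts the genes above the filter. The cell cycle list lies at 0.51 to 0.99 in the 5 sections, and the mitochondrially encoded and blood lists lie below 0 in all of them.

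The comparison of MI with sham among the chosen spots asked which genes differ with the operation within the same top share of CM5 scores. Across 13012 genes, limma with day as a covariate and Benjamini-Hochberg adjustment called 7 genes higher (0.0538%) and 0 lower in MI, while 555 (4.27%) were higher and 294 (2.26%) lower before adjustment (p under 0.05). The called genes were AI506816, Cyfip2, Tpm3-rs7, Irx3, Slc6a6, Apoe and Glo1. The fit has 2 residual degrees of freedom, and without MI day 7 replicate 2 it called 0 genes (limma, 332 higher and 304 lower before adjustment). The sham day 3 section is also the only one deposited as raw counts, and the part of that difference in these calls was not tested.

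Irx3, a homeobox factor of the ventricular conduction system (chromosome 8, 91798525 to 91802067), stood at 16.5 and 16.5 CPM in the chosen spots of sham day 3 and sham day 7 and at 77.2, 38 and 47.0 CPM in those of MI day 3 and MI day 7 replicates 1 and 2. It rose by 1.67 (SE 0.28, limma adjusted p 0.0231). In CM1-dominant spots Irx3 stood at 28.7 and 14.9 CPM in sham and at 27.6, 16.3 and 37.9 CPM in the MI sections, where the operations overlapped. Slc6a6, the taurine transporter (chromosome 6, 91684053 to 91759066), was at 32.9 and 27.3 CPM in sham and at 169, 50.2 and 59.9 CPM in MI (log2 difference 1.56, SE 0.27, limma adjusted p 0.0290). In CM1-dominant spots it was at 38.3 and 38.6 CPM in sham and 57.4, 42.2 and 50.6 CPM in MI, also without overlap. Every MI section lay above both sham sections in CM1-dominant spots for 6.2% of the 13012 genes and in the chosen spots for 10.2%. In the fit of the difference between both kinds of spot, Irx3 differed by 1.29 and Slc6a6 by 1.17 between operations, and neither passed the threshold.

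The other 5 called genes also stood higher in every MI section than in both sham sections in CM1-dominant spots, against the 6.2% of all genes given above. Cyfip2, a regulator of actin assembly (chromosome 11, 46193850 to 46312859), was at 0 and 4.41 CPM in sham and at 15.1, 28.4 and 33.6 CPM in MI (3.18, SE 0.47, limma adjusted p 0.0128), and in CM1-dominant spots at 2.08 and 6.43 against 11.6, 27.1 and 26.9 CPM. The 0 in sham day 3 is 0 of 609970 UMIs, and the limit that a count of 0 allows, taken as 3 counts, is 4.92 CPM, counting error only. AI506816, a processed transcript (chromosome 5, 23698296 to 23712667), also had 0 UMIs there, was at 3.59 CPM in sham day 7 and reached 62.2, 17.4 and 20.4 CPM in MI (3.77, SE 0.62, limma adjusted p 0.0231). In CM1-dominant spots AI506816 was at 1.40 and 1.98 against 51.5, 12.5 and 19.9 CPM. Tpm3-rs7, a copy of the tropomyosin gene Tpm3 with which it can share reads, is uncertain for that reason (3.24 and 3.66 against 49.1, 12.6 and 37.5 CPM).

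Glo1, which detoxifies methylglyoxal (chromosome 17, 30584936 to 30626871), was at 166 and 101 CPM in sham and 322, 265 and 323 CPM in MI (1.28, SE 0.19, limma adjusted p 0.0128). Apoe, a lipid carrier that macrophages make in quantity (chromosome 7, 19696109 to 19699188), was at 104 and 76.9 CPM in sham and 391, 122 and 176 CPM in MI (1.34, SE 0.22, limma adjusted p 0.0231). Beside it, 0 of 14 macrophage markers passed the threshold and 7 were higher at an unadjusted p under 0.05, and their sum of 109 and 121 CPM in sham and 404, 227 and 204 CPM in MI did not overlap, as for 10.2% of single genes. Blood genes were likewise at 2615 and 4686 CPM in sham and 5588, 7005 and 5721 CPM in MI. Fibroblast markers summed to 4323 and 5848 CPM in sham and 6479, 5916 and 7025 CPM in MI. Before adjustment 4 of these 14 markers were higher and 1 lower, and 2 of 5 epicardial markers were higher, with 0 passing. Of all genes, 4.27% were higher and 2.26% lower before adjustment. The chosen spots also differed in their highest score, with CM5 the highest in 4 of 28 and 19 of 48 in sham and 13 of 19, 18 of 35 and 13 of 40 in MI. The part of these cells and of this make-up in the called genes was not tested.

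**Figure D5:**
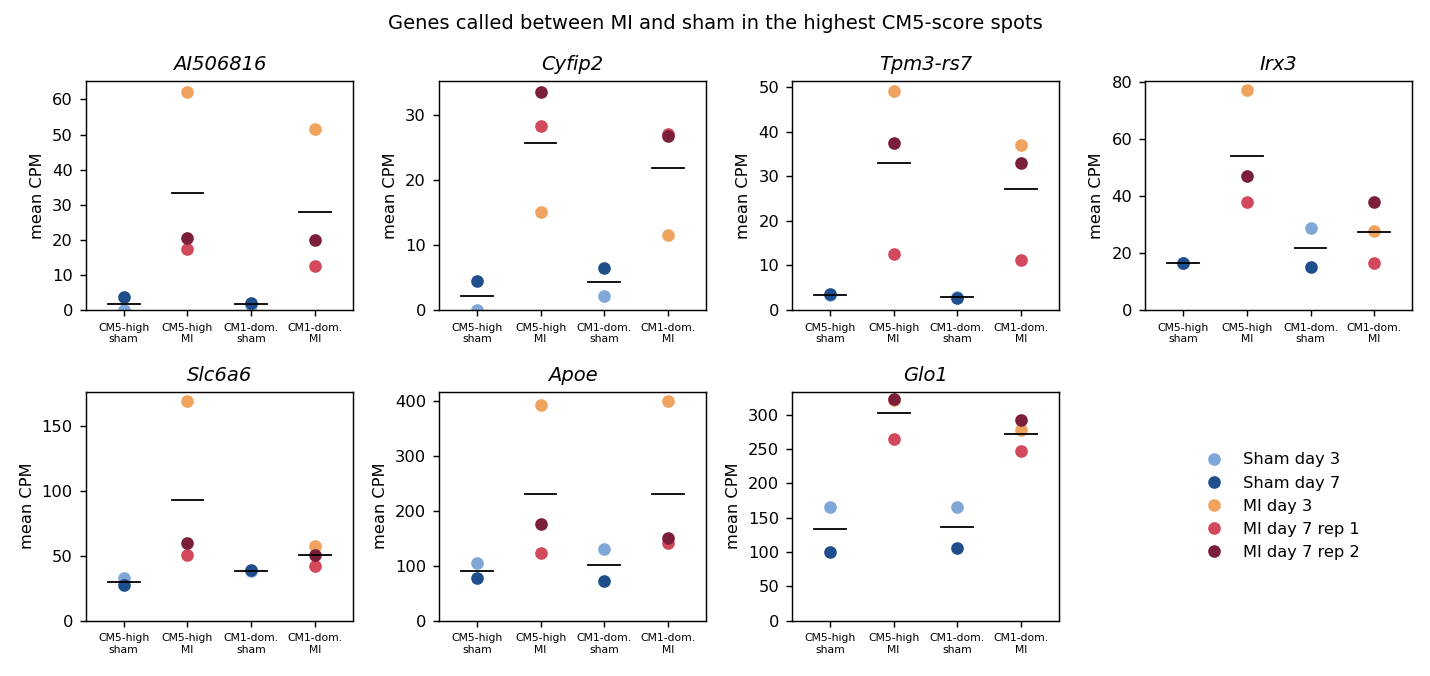
Mean CPM of the 7 genes called between MI and sham, in the highest CM5-score spots (left pair of columns) and CM1-dominant spots (right pair), 1 point per section with the mean as a bar, linear axes from 0. Irx3 separates by operation in the chosen spots, 16.5 against 38 to 77.2 CPM, and overlaps in CM1-dominant spots, while Cyfip2 and Glo1 separate in both.

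No gene passed as lower in MI. By the rule the largest falls, none passing, were in Gm14403, Casq1, Ppm1l, Kif16b and Notch2, of which Casq1, the calcium store protein of skeletal muscle, came nearest, with 109 and 247 CPM in sham and 52.1, 29.6 and 88.7 CPM in MI (-1.73, limma adjusted p 0.0694). Cell cycle genes showed no call between operations, with a list median of -0.09 and 3 of 15 lower at an unadjusted p under 0.05. Stress genes showed none either, with 2 of 28 higher and 4 lower before adjustment. In MI against sham, Acta2 differed by 0.57 (limma adjusted p 0.722) and Nfe2l1 by -0.07 (limma adjusted p 0.965).

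Whether the contrast with CM1-dominant spots itself differed between operations was tested on the difference within each section. Across 13303 genes limma called 0 higher (0%) and 0 lower (0%), while 600 (4.51%) were higher and 260 (1.95%) lower before adjustment (p under 0.05). The named genes, Dynlt1f, Irx3, Pgap3, Bms1 and Slc6a6 upward and Ddc, Mmgt1, Rarres2, Bloc1s6 and Adamts7 downward, had adjusted p values of 0.751 to 0.767. The section medians of the cell cycle list, higher in the 3 MI sections (0.65 to 0.99) than in both sham sections (0.51 and 0.53), gave a list median of 0.31 in this fit, and 0 of 15 genes had an unadjusted p under 0.05. Section medians also did not overlap between operations for the antioxidant list, the unfolded protein and integrated stress response list and the working myocardium list.

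CM1-dominant spots that touch a highest CM5-score spot (52, 87, 22, 69 and 128 spots in the section order above) were compared with CM1-dominant spots that touch none (172, 282, 173, 253 and 333). Both kinds were chosen by their own highest score, CM1, and by a CM5 score below the limit, and differ in position. In limma with the section as a block, 0 of 13236 genes were higher (0%) and 13 lower (0.0982%), while 608 (4.59%) and 337 (2.55%) were so before adjustment (p under 0.05). With median-of-ratios scaling the split before adjustment turned round, to 328 higher and 481 lower, and with mitochondrial and haemoglobin genes left out of both the scaling and the fit to 284 and 587. The touching spots had mean CM5 scores of 2.72%, 2.2%, 21.2%, 8.32% and 9.30%, against 1.36%, 1.67%, 3.6%, 3.81% and 6.82%. The touching spots also lay nearer to the centre in 4 of 5 sections and at nearly the same distance in sham day 7, at a median relative distance of 0.886, 1.0965, 0.826, 0.902 and 0.848 against 1.02, 1.0967, 1.13, 1.18 and 1.07, and held fewer edge spots (0% to 12.6% against 13.1% to 30.6%). When both kinds were limited to spots nearer to the centre than the median spot, an alternative added after the data were seen, none of the 13 genes passed, and mt-Co2 stood at 0.0046 on the log2 scale, Dlk1 at -0.56, Ptn at -0.15, Col1a1 at -0.07 and Col3a1 at -0.08, with limma adjusted p values of 0.887 to 0.890 for the last 4. That fit called 1 gene lower, Nppa, named after its value was seen, with 177 genes higher and 545 lower before adjustment in limma. Of the 13 genes, 9 were mitochondrially encoded: mt-Co1, mt-Co2, mt-Co3, mt-Atp6, mt-Cytb, mt-Nd1, mt-Nd2, mt-Nd3 and mt-Nd4.

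The mitochondrially encoded list summed to 145482, 155410, 147326, 268111 and 156372 CPM in touching spots and to 170539, 164788, 175585, 283965 and 178290 CPM in the others, lower in 5 of 5 sections. Of its 13 genes, 11 were lower in all 5 sections, against 2.52% of all genes tested. Of the called ones, mt-Co2 fell by 0.26 (SE 0.03, limma adjusted p 0.000691). Col1a1 and Col3a1, fibrillar collagens of fibroblasts, fell by 0.24 and 0.20 (limma adjusted p 0.0264 and 0.00681). Of the 14 fibroblast markers that include them, 4 were lower and 1 higher in all 5 sections. Their sum in touching spots was 0.97, 0.98, 0.89, 0.95 and 0.94 times that in the others. Of all genes tested, 2.52% were lower and 5.53% higher in all 5 sections. Dlk1, a Delta-like membrane protein (chromosome 12, 109452823 to 109463336), was at 22.8, 6.08, 27.6, 28.2 and 5.94 CPM in touching spots and 36.5, 9.95, 70.8, 35 and 16.8 CPM in the others (-0.86, SE 0.15, limma adjusted p 0.00773). Ptn, the growth factor pleiotrophin (chromosome 6, 36714929 to 36810220), fell by 0.33 (limma adjusted p 0.0383).

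The cell cycle list did not pass in touching spots. Its sum was 1018, 632, 1231, 393 and 534 CPM against 994, 652, 794, 334 and 562, higher in 3 of 5 sections, and 3 of 15 genes were higher at an unadjusted p under 0.05. Of 25 nuclear-encoded respiratory chain genes 14 were higher before adjustment on the CPM scale and 0 passed, and 14 were higher in all 5 sections, against 5.53% of all genes tested. Also higher before adjustment, with 0 passing, were 9 of 20 genes of the working myocardium and 8 of 20 of glycolysis. Of 6 blood genes 5 were lower before adjustment, against 2.55% of all genes tested, and 0 passed. None was lower in all 5 sections, and the sections split by operation. The blood sum in touching spots was 1.05 and 1.08 times that of the others in sham day 3 and sham day 7. In MI day 3 and MI day 7 replicates 1 and 2 it was 0.39, 0.88 and 0.77 times. Without sham day 3, and likewise without MI day 7 replicate 2, 0 genes passed in this comparison, and with mitochondrial and haemoglobin genes left out of both the scaling and the fit the 4 called genes that were still tested, Dlk1, Ptn, Col1a1 and Col3a1, passed.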

How the data were processed

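Visium sections were made from 5 hearts, and per the labels reads were aligned to mouse build GRCm38 with Space Ranger. The authors deposited, per section, an expression table and a spot table. The sham day 3 table held raw UMI counts, and the authors deposited the other 4 as sctransform-corrected counts, a score rounded to whole numbers. The deposited spot tables gave raw UMI counts, 11 cell type scores as fractions that sum to 1, made by label transfer, and spot positions in pixels. Because the units differed, the count test planned for raw counts was not used: each spot was scaled to CPM over the 13711 genes present in all tables, and spots were averaged per section and kind of spot. No column of per-sample values was left unmapped.

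Models were fitted by limma (version 3.58.1, R 4.3.3) to the log2 of mean CPM plus 1, which understates the change of low genes, with a mean-variance trend, genes with at least 1 CPM in at least 2 columns, two-sided p-values and Benjamini-Hochberg adjustment at 0.05. Positions were handled in Python 3.11.15 (pandas 2.3.3, numpy 2.4.6, scipy 1.17.1), with neighbours within 1.3 spot spacings and exact sign-flip or permutation tests over sections. Where a group had 1 section, that section is assumed to vary like the others. The labels name no separate litters or batches, so p-values rest on the spread between these hearts. In limma that spread is pooled with the variance of other genes, weighted by prior degrees of freedom. These were 17.2 against 2 residual ones for MI versus sham within the chosen spots. They were 2.63 against 2 for the fit of the difference and 19.6 against 4 for touching spots. Gene positions are from GENCODE annotation of GRCm38 and promoter windows from RefSeq (GRCm38.p6). Named genes were the 10 largest and 10 smallest differences from CM1-dominant spots among genes at 20 CPM or more with 1 direction in every section, and in each tested comparison the 5 largest rises and falls that passed, or those not passing where fewer than 3 did. Further genes were members of 22 gene lists, other called genes, and Nfe2l1, Acta2 and Xirp2. The members and lists were chosen with earlier results of these data known. The fits were tested on simulated data with known changes. Alternatives covered the share of spots taken, the scaling, the filter, the pseudocount, the comparison spots and each section left out.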

Additional observations from a re-analysis of the deposited data

Results flagged for a closer look

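The mean CM4 score of neighbours differed between operations in direction. Members minus CM1-dominant spots was above 0 in 3 of 3 MI sections and below 0 in both sham sections, and the difference between operations was 8.23 percentage points (exact permutation p = 0.2, the smallest that 3 against 2 sections allow, and 1 after adjustment over 10 scores). The median of the working myocardium list, highest CM5-score minus CM1-dominant spots, also had opposite signs by operation. It was 0.0042 and 0.0015 in sham day 3 and sham day 7 and -0.088, -0.0088 and -0.0054 in MI day 3 and MI day 7 replicates 1 and 2. Median-of-ratios scaling moved the median over all sections from -0.011 to -0.071. On the CPM scale the difference between MI and sham was -0.037 in log2. That difference was not tested for the list, and 0 of its 20 genes had an unadjusted limma p under 0.05 in the fit of the difference between operations.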

How the results depend on the processing

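The design has 5 sections and 1 in 3 of 4 groups, so a fit rests on few degrees of freedom and a lone section is assumed to vary like the others. MI and sham hearts were not paired, because the labels tie no MI heart to a sham heart beyond the day, which was used as a covariate. Of the named genes' values, 884 kept direction and side of the threshold under the alternatives, 59 lost it, 10 gained it, 12 reversed and 8 without a test moved. Of position and neighbour values 127 were the same and 3 reversed, and of list medians 344 were the same and 51 moved. The median of 15 of 22 lists turned sign under at least 1 alternative, in 5 of them with a scaling, while those of the cell cycle, mitochondrially encoded, blood, macrophage, glycolysis, proteasome and antioxidant lists kept theirs. With median-of-ratios scaling the glycolysis, proteasome and antioxidant medians still fell, to 0.041, 0.052 and 0.0041. The cause of these changes was not tested.

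Among the chosen spots, MI against sham gave 66 genes higher and 18 lower with the top 10% of spots, in which all 7 of the main calls were shared, and 1 lower with summed spots, 1 lower with a pseudocount of 5 CPM and 2 lower with no filter. Leaving out 1 section gave 0 to 53 higher and 0 to 14 lower, with 14 and 2 without sham day 3, 13 and 3 without sham day 7, 14 and 3 without MI day 3, 53 and 14 without MI day 7 replicate 1 and 0 without replicate 2. Of the 7 genes, these fits shared 4, 4, 3, 7 and 0. The fit of the difference between operations called 0 genes under every alternative run. For touching spots the counts were 16 higher and 21 lower with the top 10% of spots, 4 lower with mitochondrial and haemoglobin genes left out of scaling and fit, so that the 9 called mitochondrial genes were not tested, 23 higher and 26 lower with the second ring included, and 1 lower among spots nearer to the centre than the median spot. There 8 of the called mitochondrial genes turned above 0, with mt-Co2 at 0.0046, mt-Nd4 at 0.0016, mt-Atp6 at 0.011, mt-Co1 at 0.0073, mt-Co3 at 0.0053, mt-Nd1 at 0.060, mt-Nd2 at 0.021 and mt-Nd3 at 0.016 on the log2 scale, while Dlk1, Ptn, Col1a1 and Col3a1 stayed below 0 without passing. Leaving out 1 section gave 0 to 1 higher and 0 to 14 lower, with 0 lower without sham day 3 and without MI day 7 replicate 2. Genes higher and lower in every section were 535 and 597 with median-of-ratios scaling, 583 and 548 with mitochondrial and haemoglobin genes left out, and 613 and 994 against all other spots. With members of highest CM5 score 507 were lower, with members of highest CM1 score 611 were higher, and among spots nearer to the centre than the median spot 490 were higher. Over 4 sections 1303 to 1771 were higher and 553 to 741 lower. Nfe2l1 in MI against sham, at -0.07, was 0.038 with the top 10% of spots, 0.14 with the top 2.5%, and between -0.25 and 0.065 with 1 section left out, above 0 without sham day 3 and without MI day 3. The distance to macrophage-dominant spots, 0.008 spacings longer for the chosen spots, became -0.159 with the top 2.5%, -0.103 with no UMI minimum and between -0.326 (without sham day 3) and 0.186 (without MI day 7 replicate 2) with 1 section left out.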
